A study of Mus musculus with 28 samples.

Results

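Levels of 31 genes of cholesterol synthesis, regulation, transport, export and turnover were described across the 28 dorsal hippocampus libraries of a mouse study of fear memory and glucocorticoid receptor (GR) ligands. The genes were chosen as a named list, by symbol, from the 50686 genes of the count table, with earlier results of these data known. All 31 were found and all 31 passed the filter on low counts. The list holds 18 enzymes of synthesis, 5 regulators, 2 transport proteins, 2 exporters, 2 liver X receptors, 1 enzyme of turnover and 1 enzyme of storage.

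All libraries came from male C57Bl6 mice, and the 6 groups were Cort (n = 5), RU486 (n = 5), C108 (n = 5), C118 (n = 5), Vehicle (n = 4) and Basal (n = 4). The mice of the first 5 groups underwent auditory fear conditioning, which pairs a tone with a shock, and were given the treatment their group is named for. Basal mice had no conditioning and no treatment, so that conditioning and the handling for an injection or other dosing cannot be told apart in a comparison with Basal. Cort commonly stands for corticosterone, the chief stress steroid of rodents, and RU486, or mifepristone, blocks both GR and the progesterone receptor. C108 and C118 carry code names only. The sources used here do not give doses, times, ages or the number of mice behind a library.

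Neurons and glia make their own cholesterol, because lipoproteins do not cross the blood-brain barrier in amounts that matter. When sterol in the endoplasmic reticulum runs low, the escort protein SCAP carries the SREBP precursors to the Golgi, where they are cut into transcription factors that switch on synthesis genes. INSIG proteins hold SCAP back when sterol is plentiful, and INSIG1 is itself an SREBP target. Myelin holds much of the brain's cholesterol, astrocytes hand it to neurons on lipoproteins loaded by ABCA1 and ABCG1, and neurons clear the surplus through the hydroxylase CYP46A1.

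Promoter windows are shown for the regulators Insig1, Srebf1 and Srebf2 and the enzymes Hmgcs1 and Msmo1, because Insig1 and Srebf1 had the smallest p over the groups, and the windows of Srebf2, Hmgcs1 and Msmo1 hold the start of a sterol regulatory element. Of 3 Srebf1 windows the most upstream is printed. The window at chr11:60210422-60210721 also holds a CCAAT box, 30 bases before its start site, and 2 GC boxes, and the window at chr11:60220578-60220877 holds 3 GC boxes. Each window, from RefSeq on build GRCm38.p6, runs from 250 bases before to 50 bases after a start site, 5′ to 3′ on the gene's strand. Capitals mark the letters TCACNCC, the first bases of a sterol regulatory element, and CCAAT, the box bound by NF-Y, which reads ATTGG on the other strand.
Insig1, chr5:28071162-28071461, plus strand: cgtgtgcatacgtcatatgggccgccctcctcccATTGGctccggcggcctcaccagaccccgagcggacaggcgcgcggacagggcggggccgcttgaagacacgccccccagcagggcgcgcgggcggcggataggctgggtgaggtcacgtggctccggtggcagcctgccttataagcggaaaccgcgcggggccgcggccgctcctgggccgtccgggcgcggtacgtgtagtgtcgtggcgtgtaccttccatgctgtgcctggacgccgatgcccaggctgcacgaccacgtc
Srebf1, chr11:60222532-60222831, minus strand: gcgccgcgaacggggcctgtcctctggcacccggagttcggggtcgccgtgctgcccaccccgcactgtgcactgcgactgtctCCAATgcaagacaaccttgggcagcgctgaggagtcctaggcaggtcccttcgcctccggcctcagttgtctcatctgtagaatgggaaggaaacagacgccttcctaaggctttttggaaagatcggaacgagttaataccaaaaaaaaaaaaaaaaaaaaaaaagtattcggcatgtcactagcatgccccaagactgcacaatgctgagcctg
Srebf2, chr15:82147019-82147318, plus strand: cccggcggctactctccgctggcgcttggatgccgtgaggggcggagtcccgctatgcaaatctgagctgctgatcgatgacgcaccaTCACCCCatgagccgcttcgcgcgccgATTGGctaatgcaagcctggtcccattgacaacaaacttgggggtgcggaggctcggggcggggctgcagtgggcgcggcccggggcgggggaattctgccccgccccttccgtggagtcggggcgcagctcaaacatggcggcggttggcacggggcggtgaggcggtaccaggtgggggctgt
Hmgcs1, chr13:119690101-119690400, plus strand: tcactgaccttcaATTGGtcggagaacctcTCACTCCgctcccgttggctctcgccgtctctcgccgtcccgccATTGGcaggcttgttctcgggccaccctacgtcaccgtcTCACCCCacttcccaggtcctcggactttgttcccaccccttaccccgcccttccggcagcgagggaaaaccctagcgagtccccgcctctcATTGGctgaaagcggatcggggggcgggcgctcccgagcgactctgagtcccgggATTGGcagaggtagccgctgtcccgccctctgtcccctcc
Msmo1, chr8:64733529-64733828, minus strand: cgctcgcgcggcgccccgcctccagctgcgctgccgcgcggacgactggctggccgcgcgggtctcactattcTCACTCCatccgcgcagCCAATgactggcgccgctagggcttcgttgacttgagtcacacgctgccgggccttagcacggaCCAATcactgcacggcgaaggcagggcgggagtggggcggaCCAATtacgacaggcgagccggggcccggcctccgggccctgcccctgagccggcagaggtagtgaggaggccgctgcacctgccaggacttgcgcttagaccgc

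RefSeq windows matched 25 of the 31 genes, with 34 windows in all, and Fdps, Fdft1, Sqle, Stard4, Abcg1 and Npc1 are named only. Both strands were searched, and a match is a description of letters, not a binding site. TCACNCC was found in 23.5% of the 34 windows and in 15.6% of all 32851 windows, and the longer TCACNCCAC, which contains it, in 2.94% (Hmgcs1) against 1.24%. The genes with TCACNCC were Acat2, Hmgcs1, Insig2, Msmo1, Nr1h3 and Srebf2. In the Hmgcs1 window it began 220 and 137 bases before the start site, in the Msmo1 window 177 bases before and in the Srebf2 window 162 bases before. CCAAT was found in 61.8% of the windows of these genes and in 37.4% of all windows, and 20 of the 25 genes held it. The GC box GGGCGG, bound by SP1, was in 76.5% against 35.7%, and the E box CACGTG in 20.6% against 7.15%. The 34 windows belong to 25 genes, so they do not count as separate. The 32851 windows were taken whether or not their gene passed the filter on low counts, which all 31 genes here passed. The differences in share therefore need not be particular to cholesterol genes.

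**Figure D1:**
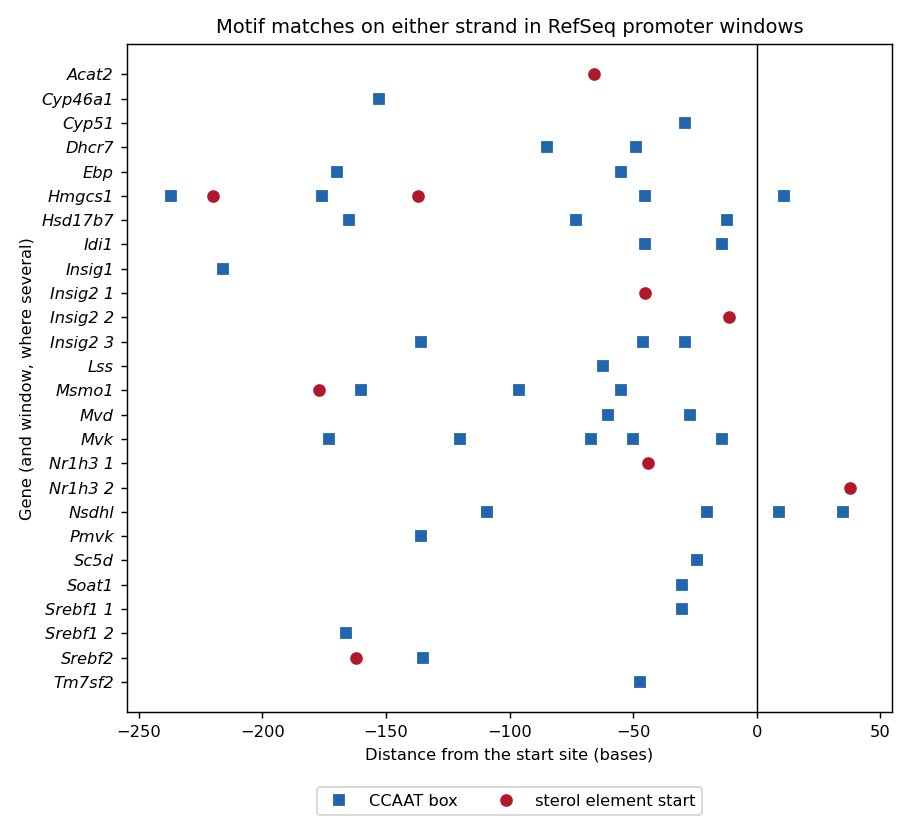
Positions of CCAAT boxes (squares) and of TCACNCC, the start of a sterol element (circles), in the promoter windows with a match, in bases from the start site (0), on either strand. The Mvk window holds 5 CCAAT boxes and the Hmgcs1 window holds 4 boxes beside its 2 matches to TCACNCC.

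The libraries held 16.24 to 20.3 M gene counts (M, 10 to the power of 6), and 16735 genes were tested. Levels are in CPM, counts per 10 to the power of 6 after TMM scaling of library sizes, and "called" means an adjusted p under 0.05 in edgeR's quasi-likelihood test with Benjamini-Hochberg adjustment over all tested genes. The labels do not say that libraries came from separate mice, so p-values measure the spread between these libraries, and in bulk tissue fewer cells of a type and less RNA per cell cannot be told apart. Hippocampal markers were present in every library, with summed levels of 516 to 949 CPM for 8 dentate gyrus markers and 325 to 888 CPM for 7 CA1 markers. The 13 thalamus markers tested summed to 1030 CPM in Vehicle 16 and 546 CPM in Vehicle 3, both above every library of the other groups (185 to 499 CPM), and to 228 and 253 CPM in Vehicle 23 and 29. Cort 36, C108 39 and C118 38 had the lowest astrocyte marker scores of all libraries (-0.37, -0.53 and -0.60) and the lowest endothelial scores (-0.73, -1.26 and -1.24). A score is the mean log2 CPM of a marker list after centring each gene over all libraries.

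Cholesterol genes differed widely in level. Per kilobase of exon, Hmgcs1, the cytosolic synthase of the mevalonate pathway, was highest at 42.0 CPM per kb (mean of 28 libraries, range 34.2 to 53.1). Cyp46a1, which makes 24S-hydroxycholesterol, followed at 32.9 CPM per kb (27.5 to 37.7) and Srebf2, the SREBP that mainly drives cholesterol synthesis, at 28.8 CPM per kb (22.1 to 34.4). The ranges of these 3 genes overlapped from each to the next. Sc5d, a desaturase late in synthesis, stood at 18.8 CPM per kb, Insig1 at 17.5 and Insig2 at 13.7. Srebf1, whose products mainly drive fatty acid genes, stood at 6.19 CPM per kb (4.74 to 9.05), the exporters Abcg1 at 8.50 and Abca1 at 4.76, and the liver X receptor genes Nr1h2 at 9.48 and Nr1h3 at 1.10. At the low end, Fdps, which makes farnesyl diphosphate, was at 0.199 CPM per kb, a mean of 16 counts per library. Of its 50-base stretches 26.2% also occur in 8 other genes and 26.7% of its exon bases are shared with a gene on the same strand, so its level and its differences are uncertain. The same doubt holds for Acat2 (39.1% of 50-base stretches in Acat3), Idi1 (17.7% in 4 other genes), Tm7sf2 (9.87% in Vps51) and Fdft1 (9.38% in Gm6781). In 8 of the 31 genes exons are overlapped by a gene on the opposite strand, and the sources used here do not say whether counting used strand.

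**Figure D2:**
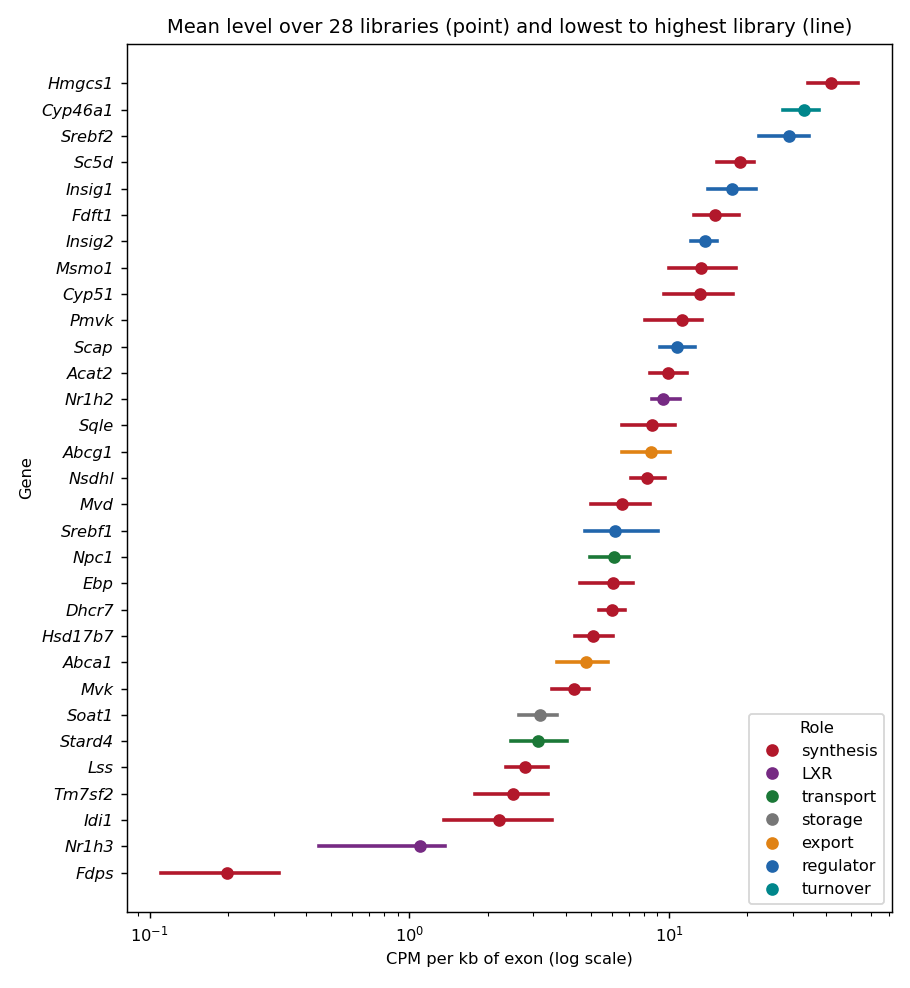
Mean level of each of the 31 genes in CPM per kilobase of exon, on a log axis, with a line from the lowest to the highest of 28 libraries and a colour for the gene's role. Hmgcs1 is at the top with 42.0 CPM per kb and Fdps at the bottom with 0.199.

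Across libraries the genes kept a narrow range. In 28 of the 31 genes the highest library was under 2 times the lowest, from 1.26 times in Dhcr7, the last reductase of synthesis, to 1.91 times in Srebf1 and Tm7sf2. The other 3 were low in counts: Idi1 at 2.60 times, Fdps at 2.84 times and Nr1h3 at 3.07 times. In the edgeR test of any difference over the 6 groups, Insig1 alone was called (adjusted p = 0.0342), 1 of 31 genes, where 4.73% of all tested genes were called. At an unadjusted p under 0.05 it was 6 of 31, where 18.6% of all genes passed. The next smallest p-values belonged to Srebf1 (adjusted p = 0.0544), Stard4 (0.104), Sqle (0.13), Hmgcs1 (0.186) and Fdft1 (0.224), all in edgeR. The Insig1 call over 6 groups was lost, and 0 genes of the list were called, without Basal 1, Basal 14, Vehicle 29, Cort 30, C108 26, C108 34 or C108 39. Without Cort 11 it was also lost, and 2 other genes were called (Hmgcs1 and Stard4). Insig1 and Srebf1 were both called (2 genes) without Vehicle 3, Vehicle 23, C108 21, C118 20 or C118 38.

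Insig1 had the lowest mean in C108 and the highest in Basal. Insig1 (ENSMUSG00000045294, chromosome 5, 28071363 to 28078662, plus strand, GRCm38) was at 58.9, 47.9, 54.2, 47.3 and 44.1 CPM in Cort (libraries 4, 11, 17, 30 and 36) and at 48.7, 57.2, 56.5, 50.4 and 57.5 CPM in RU486 (6, 12, 19, 25 and 32). In C108 it was at 49.7, 53.6, 43.7, 43.7 and 47.7 CPM (8, 21, 26, 34 and 39), and in C118 at 53.7, 50.7, 59.4, 53.0 and 51.5 CPM (7, 13, 20, 33 and 38). Vehicle libraries 3, 16, 23 and 29 held 54.5, 61.9, 59.7 and 62.3 CPM, and Basal libraries 1, 9, 14 and 27 held 63.2, 66.7, 58.7 and 55.5 CPM. Every C108 library was below every Vehicle and every Basal library, while the Cort, RU486 and C118 ranges each overlapped both. Group means were 50.5 ± 5.98 CPM in Cort, 54.1 ± 4.17 in RU486, 47.7 ± 4.20 in C108, 53.7 ± 3.41 in C118, 59.6 ± 3.61 in Vehicle and 61.1 ± 4.93 in Basal (SD). Insig1 fell in C108 against Basal by 0.36 ± 0.08 on the log2 scale (SE, edgeR adjusted p = 0.0104) and in Cort against Basal by 0.27 ± 0.08 (adjusted p = 0.0439). Against Vehicle the C108 difference was -0.32 ± 0.08 (SE, log2), with an adjusted p of 0.0738 in edgeR and 0.0190 in DESeq2. It passed in edgeR without Vehicle 3 (adjusted p = 0.0496), Vehicle 23 (0.0458) or C108 21 (0.0489). The other ligands against Vehicle were at -0.24 (Cort, adjusted p = 0.254), -0.14 (RU486, 0.707) and -0.15 (C118, 0.670), and Vehicle against Basal was at -0.03 ± 0.09 (adjusted p = 0.889). The Cort call against Basal was lost without Basal 1, 9 or 14 (adjusted p = 0.135, 0.131 and 0.0805) and without Cort 11, 30 or 36 (0.0936, 0.120 and 0.137), and the C108 call without Basal 1 (0.0513).

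Srebf1 had its highest mean in Basal and was called lower in Cort, C108 and Vehicle. Srebf1 (ENSMUSG00000020538, chromosome 11, 60199089 to 60222581, minus strand) encodes both SREBP-1a and SREBP-1c, which counts per gene do not separate. It was at 33.6, 32, 29.2, 34.5 and 28.5 CPM in Cort and at 37.5, 33, 34.7, 34.1 and 35.5 CPM in RU486. C108 libraries held 34.5, 35.0, 33.2, 29.9 and 28.5 CPM and C118 libraries 31.9, 37.9, 40.9, 36.3 and 27.8 CPM, in the order of library numbers given for Insig1. Vehicle libraries held 38.8, 37.6, 26.7 and 29.5 CPM and Basal libraries 47.1, 38.5, 51.0 and 38.7 CPM. All libraries of Cort, RU486 and C108 were below all Basal libraries, whereas C118 20 and Vehicle 3 lay above the lowest Basal library, and Basal itself was split into a lower pair (38.5 and 38.7 CPM) and a higher pair. Means were 31.6 ± 2.62 CPM in Cort, 35.0 ± 1.68 in RU486, 32.2 ± 2.89 in C108, 34.9 ± 5.16 in C118, 33.2 ± 5.97 in Vehicle and 43.8 ± 6.21 in Basal (SD). Srebf1 fell against Basal in Cort by 0.47 ± 0.11 (SE, log2, edgeR adjusted p = 0.00712), in C108 by 0.44 ± 0.11 (0.0161) and in Vehicle by 0.40 ± 0.12 (0.0467). RU486 and C118 were each at -0.33 ± 0.11 against Basal and did not pass (adjusted p = 0.0766 and 0.0911), and all 4 ligands were within 0.08 of Vehicle on the log2 scale. The 95% interval of the difference from Vehicle reached from -0.30 to 0.16 in Cort and from -0.16 to 0.31 in C118.

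The Srebf1 calls rested on few Basal libraries. Without Basal 14 they were lost in Cort (edgeR adjusted p = 0.0649), C108 (0.0990) and Vehicle (0.224). Without Basal 1 they were lost in C108 (0.0772) and Vehicle (0.132), without C108 39 in C108 (0.0588), and without Vehicle 23 or Vehicle 29 in Vehicle (0.155 and 0.147). Without Basal 9 the RU486 comparison passed (0.0469).

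Stard4 and Sqle had their lowest means in C108 and their next lowest in Cort. Stard4 (ENSMUSG00000024378, chromosome 18, 33199355 to 33213862, minus strand) encodes a carrier that moves cholesterol between membranes. It was at 15.8, 20.2, 16.3, 14.6 and 14.6 CPM in Cort, 19.3, 15.8, 13.8, 16.2 and 17.8 CPM in RU486, 16, 16, 14.3, 17 and 17 CPM in C108 and 19.4, 15.1, 17.5, 16.2 and 17.3 CPM in C118. Vehicle libraries held 16.9, 19.6, 17.3 and 22.6 CPM and Basal libraries 22.6, 19.6, 20.8 and 19.7 CPM. RU486, C108 and C118 libraries were all below Basal, and Cort was too except for library 11, while no group was clear of Vehicle. Stard4 fell against Basal in Cort by 0.34 ± 0.10 (SE, log2, edgeR adjusted p = 0.0444) and in C108 by 0.37 ± 0.10 (0.0347). RU486 stood at -0.32 ± 0.10 (adjusted p = 0.0649), C118 at -0.28 ± 0.10 (0.134) and Vehicle at -0.12 ± 0.11 (0.645). The Cort call was lost without Basal 1, 14 or 27 (adjusted p = 0.175, 0.111 and 0.0604) and without Cort 4, 17, 30 or 36 (0.0883, 0.0766, 0.131 and 0.124). The C108 call was lost without Basal 1 or 14 (0.150 and 0.0889) and without C108 26, 34 or 39 (0.109, 0.0541 and 0.0647), and the RU486 comparison passed without RU486 6 (0.0397).

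Sqle (ENSMUSG00000022351, chromosome 15, 59315077 to 59331192, plus strand) encodes squalene epoxidase, the first oxygen-requiring step of sterol synthesis. It was at 46.7, 51.7, 46.8, 40.7 and 36.5 CPM in Cort, 48.6, 47.8, 47.8, 44.6 and 48.7 CPM in RU486, 43.1, 47.0, 43.1, 43.4 and 41.2 CPM in C108 and 47.3, 51.9, 47.4, 49.0 and 46.7 CPM in C118. Vehicle libraries held 42.3, 49.9, 48.8 and 58.4 CPM and Basal libraries 53.4, 52.6, 55.6 and 52.7 CPM. Every library of the 4 ligand groups was below every Basal library, while Vehicle overlapped every other group, from 42.3 CPM in library 3 to 58.4 in library 29. Sqle fell against Basal in Cort by 0.27 ± 0.08 (SE, log2, edgeR adjusted p = 0.0449) and in C108 by 0.30 ± 0.08 (0.0277), and was at -0.17 ± 0.08 in RU486 (0.208), -0.15 ± 0.08 in C118 (0.348) and -0.10 ± 0.09 in Vehicle (0.577). The Cort call was lost without any 1 library but Cort 11, with adjusted p of 0.104, 0.0596, 0.157 and 0.0722 without Basal 1, 9, 14 and 27 and of 0.0592, 0.0565, 0.138 and 0.160 without Cort 4, 17, 30 and 36. The C108 call was lost without Basal 1 or 14 (0.0827 and 0.0985) and without C108 26, 34 or 39 (0.0722, 0.0634 and 0.0908).

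**Figure D3:**
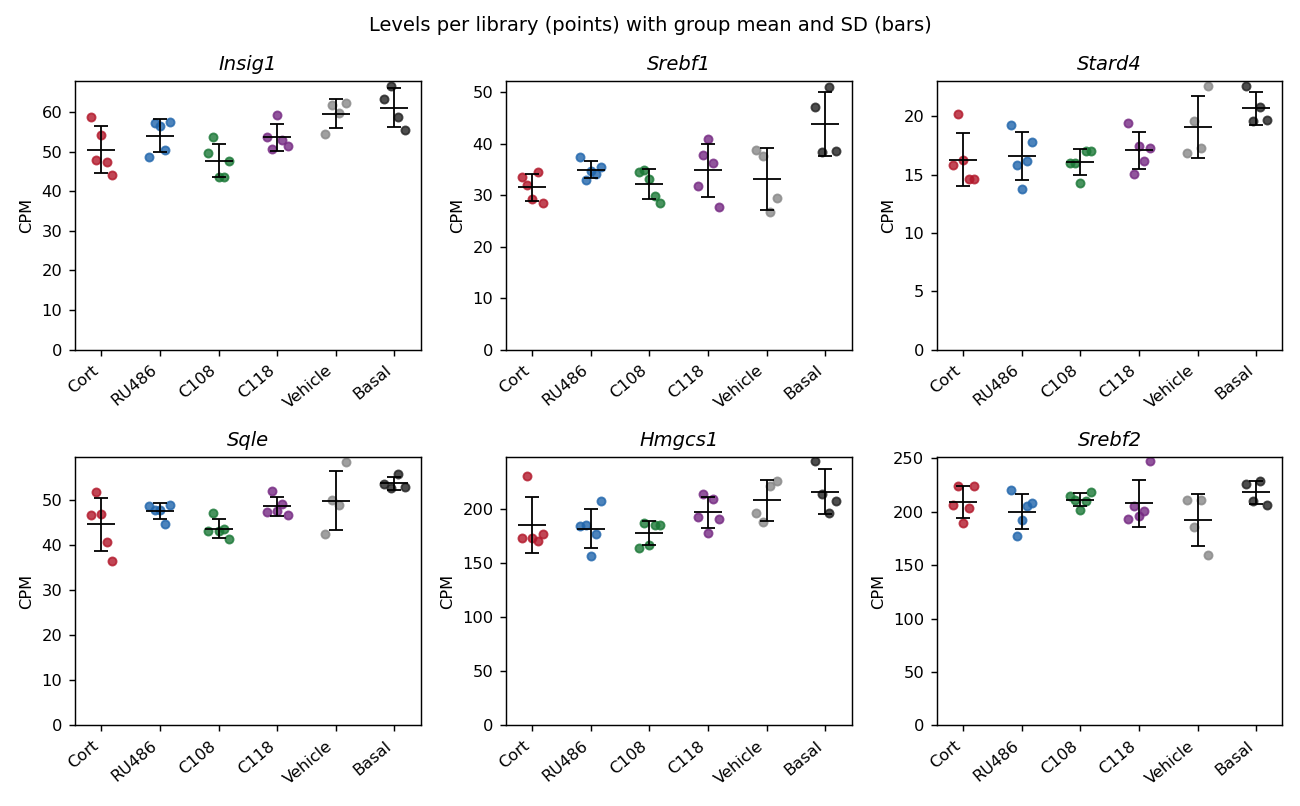
CPM of Insig1, Srebf1, Stard4, Sqle, Hmgcs1 and Srebf2 in each library (points), with the group mean and SD (bars), for Cort, RU486, C108, C118, Vehicle and Basal from left to right; axes start at 0. The Srebf1 points of Cort (28.5 to 34.5 CPM) lie below those of Basal (38.5 to 51.0), and Srebf2 in C118 has 1 library at 247 CPM above the others.

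Over the whole list, calls were few, and all of them were lower than Basal. In Cort against Basal 4 of 31 were called, all lower (Insig1, Srebf1, Stard4 and Sqle), a share of 12.9% where 3.43% of all tested genes were called lower. In C108 against Basal the same 4 were called lower, 12.9% against 3.24% of all genes, and these comparisons share their Basal libraries. The list was chosen with earlier results of these data known, so its shares are not an independent comparison with the background. In Vehicle against Basal 1 of 31 was called lower (Srebf1), 3.23% against 2.47% of all genes, a share near the background. In RU486 and C118 against Basal edgeR called 0 of 31, where 5.45% and 3.87% of all genes were called in either direction. At an unadjusted p under 0.05, 8 genes of the list were lower in RU486, where 11.1% of all genes were, and 5 in C118, where 9.85% were. DESeq2 called 2 in RU486 (Fdft1 and Stard4), where it called 8.67% of all genes in either direction, and 0 in C118 (6.14% of all genes). Limma-voom called 0 in both, with 5.74% and 4.11% of all genes called. The median log2 fold change of the 31 genes against Basal was -0.09 in Cort, RU486 and C108, -0.08 in C118 and -0.02 in Vehicle, where the median of all genes lay between 0 and 0.01. Below 0 were 24 of 31 in Cort, 23 in RU486, 22 in C108, 24 in C118 and 17 in Vehicle, and of all genes 48.4%, 49.3%, 49.1%, 48% and 49.3%. Genes with every library below every Basal library numbered 2 in Cort (background 5.35%), 5 in RU486 (6.07%), 5 in C108 (4.94%), 3 in C118 (4.96%) and 2 in Vehicle (5.76%).

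The count of calls depended on single libraries and on the settings of the fit. In Cort against Basal it was 4 without Cort 11, with Hmgcs1 in place of Insig1. It was 2 without Basal 9, Basal 27, Cort 4 or Cort 17, 1 without Basal 1, Cort 30 or Cort 36, and 0 without Basal 14. In C108 against Basal it was 2 without C108 26 or C108 34, 1 without Basal 14 or C108 39, and 0 without Basal 1. With Cort 36, C108 39 and C118 38 all left out, 1 gene (Srebf1) was called in Cort and 2 (Srebf1 and Insig1) in C108. With only the compared groups in the fit, 1 was called in Cort and 5 in C108. With the sample number as a covariate it was 1 in Cort and 1 in C108, and without a filter on low counts 1 in Cort and 2 in C108.

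Some markers of myelin, endothelium and other lists were called lower in the same comparisons. Against Basal, 3.43% of all tested genes were called lower in Cort, 2.84% in RU486, 3.24% in C108, 2.13% in C118 and 2.47% in Vehicle. Of 16 myelin markers 6 were called lower in Cort against Basal (median log2 fold change -0.37), 3 in C108 (-0.41), 0 in RU486 (-0.11), 1 in C118 (-0.16) and 1 in Vehicle (-0.23). Summed myelin levels spanned 4830 to 8630 CPM (Cort), 5980 to 8630 (RU486), 4460 to 8680 (C108), 5000 to 8350 (C118), 5620 to 8410 (Vehicle) and 6440 to 8930 (Basal). Of 8 endothelial markers 2 were called lower in Cort (median -0.66), 1 in RU486 (-0.61), 4 in C108 (-0.95), 2 in C118 (-0.72) and 0 in Vehicle (-0.39). Their summed level spanned 49.6 to 120 CPM (Cort), 62.3 to 116 (RU486), 32.9 to 107 (C108), 33.8 to 101 (C118), 71.3 to 110 (Vehicle) and 102 to 144 (Basal). Of 8 pericyte and smooth muscle markers 1 was called lower in Cort (median -0.41), 2 in RU486 (-0.56), 2 in C108 (-0.72), 1 in C118 (-0.44) and 1 in Vehicle (-0.28). Their summed level spanned 58.7 to 109 CPM (Cort), 60.5 to 97.1 (RU486), 42.6 to 92.1 (C108), 43.7 to 104 (C118), 71.5 to 113 (Vehicle) and 92 to 128 (Basal). Of the 8 dentate gyrus markers 0 were called in Cort (median -0.09), 2 lower in RU486 (-0.17), 1 in C108 (-0.13), 2 in C118 (-0.15) and 3 in Vehicle (-0.36). Their sum spanned 749 to 927 CPM (Cort), 695 to 843 (RU486), 684 to 902 (C108), 662 to 920 (C118), 516 to 775 (Vehicle) and 789 to 949 (Basal), so that every Vehicle library was below every Basal library. In Cort against Basal, 2 of 10 microglia and 2 of 12 neocortex markers were also called lower. So were 1 of 8 oligodendrocyte precursor, 1 of 7 CA1 and 1 of 12 astrocyte markers, while 1 neocortex and 1 astrocyte marker were called higher. In C108 1 microglia, 1 neocortex, 1 oligodendrocyte precursor and 1 CA1 marker were called lower and 1 astrocyte marker higher. Neuron, choroid plexus, CA3 and thalamus markers had 0 calls in both. With the myelin score as a covariate 0 of the 31 genes were called in Cort, in C108 and in Vehicle against Basal. With the endothelial score 1 was called in Cort and 1 in Vehicle, both Abca1 in place of the genes above, and 0 in C108. Unlike those genes, Abca1 had higher means in Cort (52.3 CPM) and Vehicle (53.1 CPM) than in Basal (45.9 CPM), before any covariate. With the myelin score, against Basal, Srebf1 stood at -0.28 (Cort) and -0.26 (C108) on the log2 scale and Insig1 at -0.17 and -0.26. Stard4 (-0.38 and -0.40) and Sqle (-0.27 and -0.30) were at least as far below 0 as without the score, but their adjusted p-values lay between 0.0906 and 0.121 in edgeR. With the astrocyte score as a covariate the counts were 4 in Cort and 5 in C108. The share of all genes called was not kept for the fits with a covariate. A general change in calls therefore cannot be told apart from a change particular to these genes. The part of cell makeup in these differences was not tested further.

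**Figure D4:**
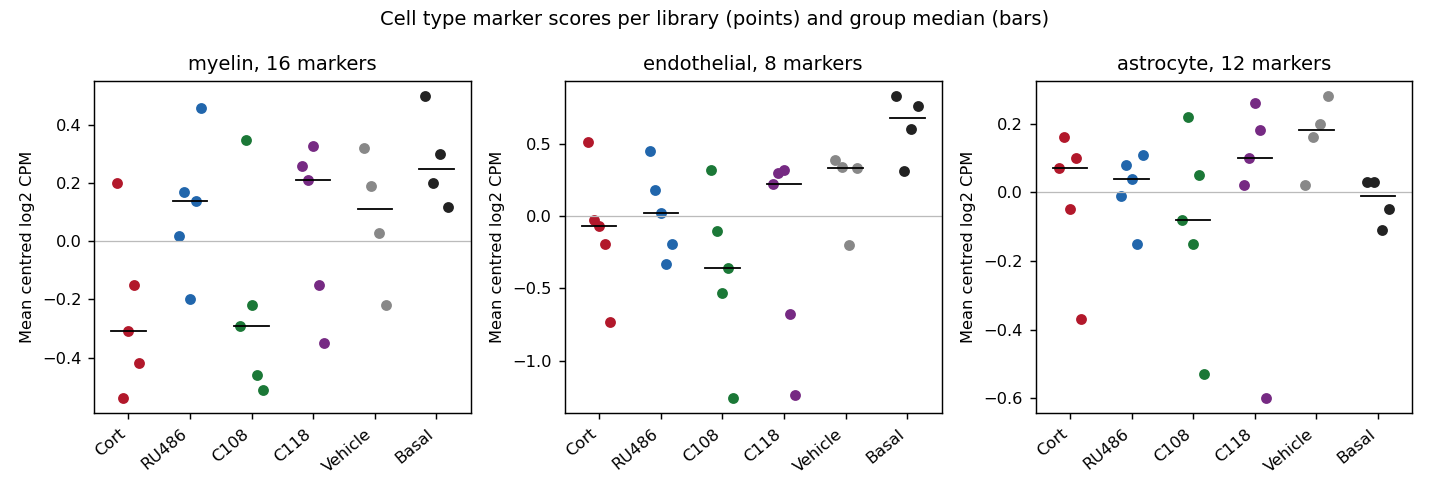
Scores of myelin, endothelial and astrocyte markers, as mean centred log2 CPM, in each library (points) with the group median (bars), for Cort, RU486, C108, C118, Vehicle and Basal from left to right. Endothelial scores run from -1.26 to 0.32 in C108 and from 0.31 to 0.83 in Basal.

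Against Vehicle, edgeR called none of the 31 genes for any ligand. Of all tested genes 0.00598% were called in Cort, 0% in RU486, 0.215% in C108 and 0% in C118, so the test called few genes of any kind there. At an unadjusted p under 0.05, 5 genes of the list were lower in Cort, 1 lower in RU486, 7 lower and 2 higher in C108 and 0 in C118, against 5.55% lower in Cort, 4.9% lower in RU486, 8.11% lower and 9.32% higher in C108 and 8.01% in either direction in C118 over all genes. DESeq2 called Insig1 in C108, where it called 1.91% of all genes, and none in the other 3, and limma-voom called none. All 13 thalamus markers lay above 0 in Vehicle against Basal (median log2 fold change 0.91, 1 called) and below 0 in each ligand against Vehicle (medians -0.40 in Cort, -1.12 in RU486, -1.62 in C108 and -1.42 in C118, with 1 called, in C108). With thalamus and neocortex scores as covariates 0 of the 31 genes were called against Vehicle. As 0 were called without these scores too, that count cannot show what thalamus tissue does. Against Basal, with these scores, Srebf1 alone was called in Cort and in Vehicle, and 0 genes in C108. The medians of the list of 31 were -0.05 in Cort, -0.06 in RU486, -0.07 in C108 and -0.05 in C118, and 19, 20, 19 and 22 of the 31 genes lay below 0, where 48.9%, 47%, 50.1% and 47.6% of all genes did. Against Vehicle, every C108 library was below in Hmgcs1 and Insig1 (2 genes, background 1.32%) and every Cort library in Hsd17b7 (1 gene, background 1.35%).

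Of the 18 synthesis enzymes, Sqle alone was called in any comparison with Basal, and none against Vehicle. Hmgcs1 was at 173, 231, 173, 170 and 177 CPM in Cort, 184, 185, 157, 177 and 207 CPM in RU486, 164, 187, 167, 185 and 185 CPM in C108, 193, 214, 178, 209 and 191 CPM in C118, 196, 188, 221 and 226 CPM in Vehicle and 244, 214, 196 and 207 CPM in Basal. All C108 libraries were below all Vehicle and Basal libraries, and Cort overlapped both through library 11 alone. Its log2 fold change in C108 was -0.23 ± 0.09 against Vehicle (SE, edgeR adjusted p = 0.205) and -0.28 ± 0.09 against Basal (0.0630, and 0.0427 in DESeq2). Against Basal, Cort was at -0.22 ± 0.09 (adjusted p = 0.154), and without Cort 11 at -0.32 (0.0210).

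Fdft1, squalene synthase, was at 66.3, 66.9, 58.8, 62.1 and 65.6 CPM in Cort, 58.2, 66.6, 54.4, 60.3 and 56.4 CPM in RU486, 62.8, 61.0, 67.2, 62.9 and 65.1 CPM in C108 and 58.3, 60.5, 58.5, 58.5 and 62.4 CPM in C118. Vehicle libraries held 52.7, 72.2, 61.7 and 75.3 CPM and Basal libraries 68.2, 69.2, 66.7 and 78.2 CPM. RU486 and C118 lay wholly below Basal, and Cort and C108 overlapped it by 1 library each. Against Basal it was at -0.25 ± 0.08 in RU486 (SE, log2, edgeR adjusted p = 0.0548, and 0.0354 without RU486 12) and -0.24 ± 0.08 in C118 (0.0785).

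Msmo1, a methylsterol oxidase, was at 86.2, 93.2, 76.2, 66.4 and 65.8 CPM in Cort, 86.4, 83.9, 84.0, 79.9 and 80.3 CPM in RU486, 72.9, 88.5, 73.1, 70.2 and 61.3 CPM in C108, 86.2, 88.8, 88.6, 76.4 and 67.8 CPM in C118, 76.9, 89.4, 95.1 and 111 CPM in Vehicle and 93.3, 90.6, 81.6 and 76.2 CPM in Basal. Every group overlapped Vehicle, where library 29 was highest of all 28. The C108 difference from Vehicle was -0.35 ± 0.11 (SE, log2, edgeR adjusted p = 0.128), the lowest value of the list in that comparison.

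Among the other enzymes, named after their values were seen, Cyp51, the lanosterol demethylase, averaged 52.0 ± 7.94 CPM in C108 (n = 5) and 62.8 ± 10.5 CPM in Vehicle (n = 4), and Lss, lanosterol synthase, 28.1 ± 2.68 and 32.5 ± 3 CPM (SD). Their log2 differences were -0.27 ± 0.11 and -0.21 ± 0.09 (SE, edgeR adjusted p = 0.206 and 0.224). Hsd17b7, a ketosteroid reductase of the pathway, was at 23.3, 26.1, 24.9, 23.1 and 25.7 CPM in Cort, against 29.5, 27.5, 31.1 and 26.4 CPM in Vehicle, a difference of -0.22 ± 0.09 (edgeR adjusted p = 0.332). Mvd, the mevalonate diphosphate decarboxylase, was at 12.1, 11, 11.7 and 11.4 CPM in Vehicle and at 13.3, 13.9, 12.6 and 15.7 CPM in Basal, a difference of -0.27 ± 0.11 (adjusted p = 0.196). These groups did not overlap in Hsd17b7 and Mvd, but the differences did not pass over all genes. Ebp, a sterol isomerase, ran the other way, with 0.07 to 0.20 above 0 on the log2 scale in all 9 comparisons and none called.

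The regulators Srebf2, Scap and Insig2 were not called in any of the 15 comparisons in edgeR. Srebf2 was at 206, 224, 189, 203 and 224 CPM in Cort, 220, 177, 192, 205 and 208 CPM in RU486, 215, 211, 202, 210 and 218 CPM in C108, 193, 205, 196, 201 and 247 CPM in C118, 211, 186, 211 and 159 CPM in Vehicle and 226, 210, 229 and 206 CPM in Basal. Every pair of groups overlapped, and Vehicle held the lowest library of all (29). Its log2 difference was -0.18 ± 0.09 in Vehicle against Basal (SE, edgeR adjusted p = 0.250) and between 0.06 and 0.14 for the ligands against Vehicle. Scap, the escort of the SREBPs, averaged 83.7 ± 6.63 CPM in C108 and 74.8 ± 7.40 CPM in Vehicle (SD, edgeR adjusted p = 0.283), and Insig2 lay between 46.2 CPM in C108 and 48.7 CPM in Vehicle on group means.

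Export, turnover and storage genes showed no call in any of the 15 comparisons in edgeR. Abca1, which loads cholesterol on apolipoproteins, was at 57.7, 51.7, 50.5, 58.5 and 43.0 CPM in Cort, 56.3, 49.2, 42.1, 46.6 and 50.3 CPM in RU486, 60.0, 56.8, 38.3, 40.6 and 39.8 CPM in C108, 52.8, 46.1, 54.9, 49.1 and 39.9 CPM in C118, 60.4, 50, 47.7 and 54.1 CPM in Vehicle and 50.9, 47.0, 44.2 and 41.5 CPM in Basal. C108 was split, with libraries 8 and 21 high and 26, 34 and 39 low, and every group overlapped every other. Its log2 difference was 0.21 ± 0.13 in Vehicle against Basal (SE, edgeR adjusted p = 0.426) and -0.17 ± 0.12 in C108 against Vehicle (0.458). Abcg1, its partner in export, averaged 65.8 ± 5.13 CPM in C108 and 56.3 ± 7.49 CPM in Vehicle (SD), a log2 difference of 0.23 ± 0.09 (edgeR adjusted p = 0.211).

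Cyp46a1, the neuronal hydroxylase, was at 124.1, 121.2, 96.3, 104 and 115.2 CPM in Cort, 111.9, 106.1, 115.8, 98.1 and 98.3 CPM in RU486, 123.5, 99.2, 119.3, 105.7 and 116.2 CPM in C108, 101.9, 106.4, 92.3, 90.3 and 118.1 CPM in C118, 117.8, 124.1, 106.1 and 93.4 CPM in Vehicle and 109.7, 101.8, 109.9 and 105.7 CPM in Basal. All groups overlapped, and its differences from Vehicle or Basal ran from -0.12 to 0.08 on the log2 scale, with no adjusted p under 0.640. Nr1h3, the gene of liver X receptor alpha, was at 2.79, 3.08, 2.90 and 1.13 CPM in Vehicle, against 3.22, 3.45, 3.20 and 3.18 CPM in Basal. Vehicle 29 stood far below the others, and the difference was -0.40 ± 0.22 (SE, log2, edgeR adjusted p = 0.338). Nr1h2, the gene of liver X receptor beta, ran from -0.04 to 0.06, Npc1, which releases cholesterol from late endosomes, from -0.13 to 0.03 and Soat1, which esterifies it, from -0.14 to 0.03 in the 9 comparisons with Vehicle or Basal.

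**Figure D5:**
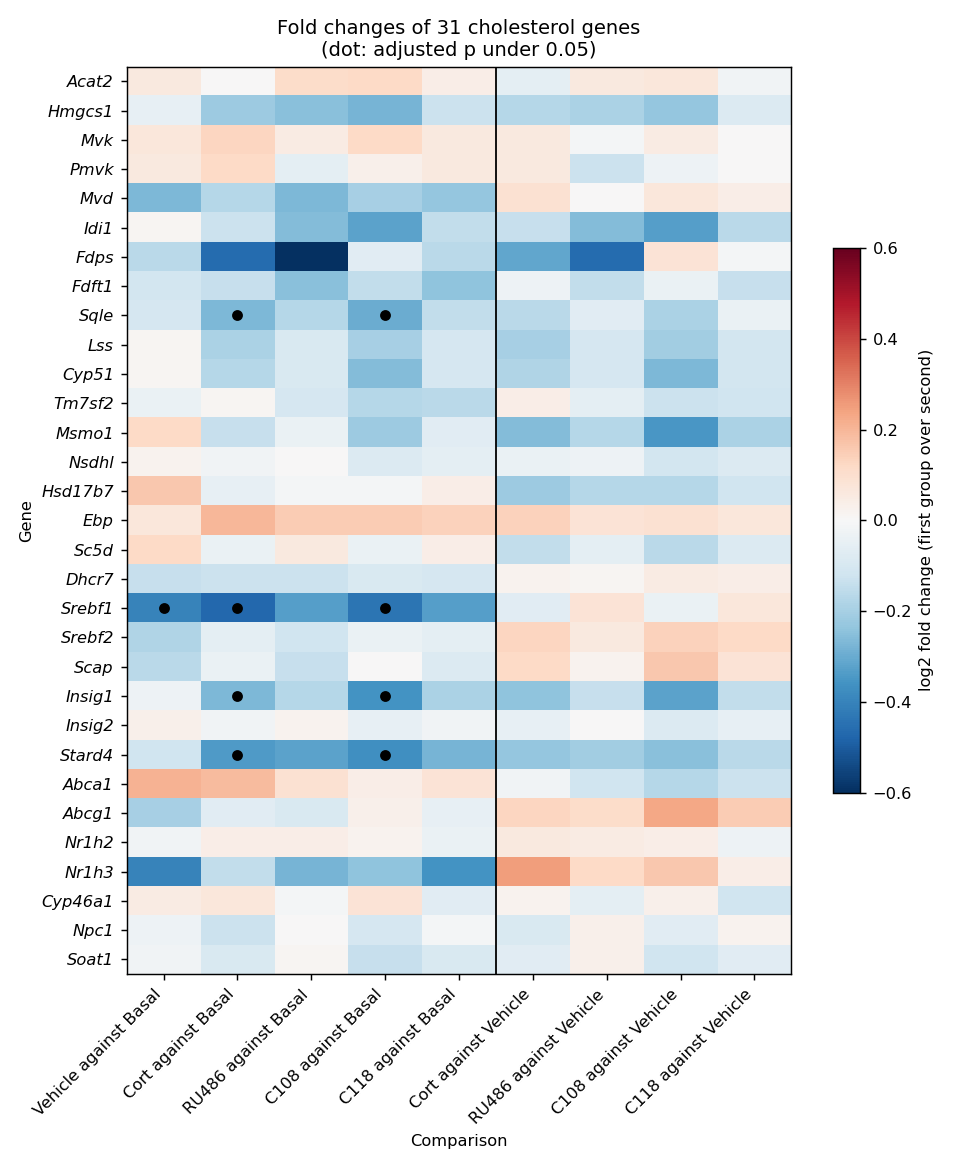
Log2 fold changes of the 31 genes (rows) in 5 comparisons with Basal and 4 with Vehicle (columns), first group over second, with a dot where the adjusted p was under 0.05 in edgeR. Dots stand at Srebf1 in Vehicle, Cort and C108 against Basal and at Insig1, Stard4 and Sqle in Cort and C108 against Basal, and none stands against Vehicle; the scale ends at 0.6, and Fdps in RU486 against Basal (-0.62) lies past it.

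The 4 ligands were compared with each other in 6 pairs, and edgeR called 0 of the 31 genes in every pair, where at most 0.0538% of all genes were called (Cort against RU486). DESeq2 and limma-voom also called 0. Of the 186 tests 2 had an unadjusted p under 0.05, both of Insig1, lower in C108. Of all genes, 3.14% passed as lower in C108 against RU486 and 1.55% in C108 against C118. Insig1 was at -0.18 ± 0.08 in C108 against RU486 (SE, log2, 95% interval -0.35 to -0.02, edgeR adjusted p = 0.841) and at -0.17 ± 0.08 in C108 against C118 (-0.33 to -0.01, adjusted p = 1). Doses and times are unknown here, so the pairs may differ in both. For Srebf1 the interval of C108 against C118 reached from -0.34 to 0.10, and for Stard4 from -0.30 to 0.12, so differences of this size could not be told from 0 at this spread.

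Of 28 further sterol genes 26 passed the filter and none was called higher in any of the 9 comparisons with Vehicle or Basal. Vldlr, a lipoprotein receptor that also binds reelin, fell against Basal in Cort (86.0 ± 8.47 CPM), C108 (90.3 ± 2.79) and Vehicle (86.6 ± 5.42), with Basal at 110 ± 7.81 CPM (SD). Its log2 changes were -0.36, -0.28 and -0.34 (edgeR adjusted p = 0.00468, 0.0307 and 0.0150). Scarb1, a receptor of high-density lipoprotein, fell in Vehicle against Basal by 0.42 ± 0.10 and Gramd1a, an endoplasmic reticulum sterol carrier, by 0.29 ± 0.08 (SE, log2, edgeR adjusted p = 0.0167 and 0.0404). In RU486 against Basal Lrp1, a large lipoprotein receptor, fell by 0.42 ± 0.11 and Gramd1a by 0.26 ± 0.08 (adjusted p = 0.0281 and 0.0493). All calls were lower than Basal, with 1 of 26 in Cort (3.85%, against 3.43% of all genes called lower), 2 in RU486 (7.69% against 2.84%), 1 in C108 (3.85% against 3.24%), 0 in C118 (against 2.13%) and 3 in Vehicle (11.5% against 2.47%). The Cort and C108 shares are near the background. In C118 against Basal 3 of 26 were lower and 4 higher at an unadjusted p under 0.05 in edgeR. Of all genes, 9.85% passed as lower and 1515 of 16735 as higher there. Against Vehicle 0 were called. Of 13 fatty acid genes known as SREBP targets, 1 was called over the 9 comparisons with Vehicle or Basal. It was Pnpla3, a lipase low in level, called lower in RU486 against Basal (7.69% of the list, against 2.84% of all genes). Pnpla3 was at 3.31 ± 0.525 CPM in RU486 and 6.24 ± 0.918 CPM in Basal (SD, log2 fold change -0.92 ± 0.28, edgeR adjusted p = 0.0483).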

How the data were processed

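Gene counts came from 28 stranded mRNA libraries of mouse dorsal hippocampus. Raw counts per Ensembl gene were made by the authors with HTSeq 0.6.1 on build mm10, per the submitters' processing notes, while the aligner, annotation and strand setting were not given in the sources used here. In the deposited table the last 5 rows named no gene (12.6% to 19.7% of all counts) and were left out, and 0 columns lacked a sample. Libraries were grouped by the conditioning and treatment labels. No 2 libraries of a group agreed within counting noise (lowest chi-square per degree of freedom 5.55 over 52 pairs).

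Genes were kept by filterByExpr of edgeR (minimum count 10, minimum total 15), which left 16735 genes with 99.9% of gene counts. All 15 pairs of groups and the test over 6 groups came from 1 robust quasi-likelihood fit (edgeR 4.0.16, R 4.3.3, TMM, 22 residual degrees of freedom, common biological coefficient of variation 0.133). Tests were two-sided with Benjamini-Hochberg adjustment over all tested genes at 0.05. Standard errors are the fold change over the square root of F, and 95% intervals follow from them. The fit was tested on simulated data. At 16.24 to 20.3 M gene counts the spread between libraries, more than counting, limits the precision of all but the genes with few counts.

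Alternatives were RLE factors, no filter, a filter of 1 CPM in 4 libraries, DESeq2 1.42.0, limma-voom 3.58.1, only the compared groups in the fit, marker scores or sample number as covariates, leaving out Vehicle 16 and 29, and leaving out each library. Leaving out Cort 36, C108 39 and C118 38 together and the endothelial and astrocyte covariates were chosen after seeing the data. Coordinates and exon lengths are from GENCODE M21 (GRCm38). Members and lists were chosen with earlier results of these data known. Values in every library are given for genes called in any pair or over 6 groups, for the next 3 by p over 6 groups, and for Srebf1, Srebf2, Insig1, Abca1 and Cyp46a1.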

Additional observations from a re-analysis of the deposited data

Results flagged for a closer look

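In 60 sets of 1 named gene in 1 group, 3 libraries stood apart from the rest of their group by a gap test at the 95% level, where chance gives about 1 in 20 sets. Hmgcs1 was at 231 CPM in Cort 11 and between 170 and 177 CPM in the other Cort libraries. Srebf2 was at 247 CPM in C118 38 and between 193 and 205 CPM in the other C118 libraries, and C118 38 also had the lowest astrocyte score of all libraries (-0.60), whose part in this value was not tested. Sqle was at 44.6 CPM in RU486 25 and between 47.8 and 48.7 CPM in the other RU486 libraries.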

How the results depend on the processing

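Directions were followed only for the genes with values given in every library, in comparisons with Vehicle or Basal with an unadjusted p under 0.05 in edgeR. None of these changed direction under any alternative run, and the direction of other genes was not followed. No paired or blocked analysis was run, because the labels name no pairs or blocks and each library carries a number of its own. Whether the numbers follow an order of handling was not given. Cort 36, C108 39 and C118 38 have numbers above those of all Basal, Vehicle and RU486 libraries, so such an order would not be balanced over the groups. In the order Cort, RU486, C108, C118 and Vehicle against Basal, the genes called numbered 4, 0, 4, 0 and 1, with 1 over 6 groups. Without a filter they numbered 1 in Cort, 2 in C108 and 0 in Vehicle. With RLE factors it was 0 in Vehicle. With the stricter filter it was 1 in RU486 and 2 over 6 groups. DESeq2 called 2 in RU486, 3 over 6 groups and 1 in C108 against Vehicle. With only the compared groups it was 1 in Cort, 1 in RU486, 5 in C108 and 0 in Vehicle. With thalamus and neocortex scores it was 1 in Cort and 0 in C108. With the myelin score it was 0 in Cort, 1 in RU486, 0 in C108, 0 in Vehicle and 0 over 6 groups. With the sample number it was 1 in each of Cort, RU486, C108 and C118 and 0 over 6 groups. With the endothelial score it was 1 in Cort (Abca1), 1 in RU486 (Mvd), 0 in C108 and 0 over 6 groups. With the astrocyte score it was 3 in RU486, 5 in C108, 1 in C118 and 2 over 6 groups. Without Vehicle 16 and 29 it was 2 in RU486, 1 in C118, 0 in Vehicle and 0 over 6 groups. Without Cort 36, C108 39 and C118 38 it was 1 in Cort, 2 in C108 and 0 over 6 groups. Leaving out each library in turn gave 0 to 4 (Cort), 0 to 1 (RU486), 0 to 4 (C108), 0 to 0 (C118) and 0 to 1 (Vehicle) against Basal. It gave 0 to 1 in C108 against Vehicle and 0 to 2 over 6 groups. The counts against Vehicle in Cort, RU486 and C118 and between ligands were 0 in every setting. Apart from DESeq2 and limma-voom, the share of all genes called was not kept for these alternatives, so the counts have no background beside them. The cause of these shifts was not tested. Most adjusted p-values of the called genes lay close to 0.05, and with 4 or 5 libraries a group changes of this size (log2 0.27 to 0.47) are near the limit of what the test calls.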
